A study of Mus musculus with 12 samples.

Results

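B4 and ID are 2 families of short interspersed elements (SINEs) in the mouse genome, and their RNA was followed from testis extract to immunoprecipitates of ORF1p, the RNA-binding protein encoded by the L1 retrotransposon. The elements were defined by their annotation, as every listed locus of class SINE and family B4 or ID. This gave 98613 of the 781935 repeat loci in the tables. The B4 family held 85399 of these loci, in the subfamilies B4, B4A, ID_B1 and RSINE1. The ID family held 13214, in the subfamilies ID, ID2, ID4 and ID4_. The same 8 names, of 1528 repeat subfamilies, carried a normalised count in every library.

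All samples were testes of Mael-/- C57BL/6 mice of about 3 months of age, and 10 mM EDTA was present in all 4 groups. TOTAL was RNA of the whole extract, and INPUT was RNA of sucrose gradient fractions 5 to 8 of such extract, pooled. IP was the material that an anti-ORF1p antibody on beads recovered from INPUT, and BO (Beads Only) was the material that beads without antibody recovered. Each group had 3 libraries, described as biological replicates, for 12 in all. Nothing in the sources says whether the libraries of a group came from separate animals, so the p-values measure the spread between these libraries. No wild-type library was analysed here, and the whole testis was used, so the values belong to no single cell type.

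SINEs are short elements that encode no protein and are copied by the L1 machinery. ID elements descend from the gene of BC1, a short RNA of RNA polymerase III that resembles alanine tRNA at its 5′ end, whereas B1 elements descend from 7SL RNA of the signal recognition particle. The B4 family is built from parts that resemble ID and B1 elements, as the name ID_B1 shows. Copies lie in introns, untranslated regions and between genes, so a read on a copy may come from a longer RNA that holds it as well as from the element's own transcript, and these tables cannot tell the sources apart.

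The BC1 sequence is shown because it is the source of the ID family and its RNA is compared with that of the copies below. In GENCODE M21 (mm10) the gene Bc1 is a noncoding RNA with a single exon on the + strand, at chr7:144914470-144914637, and its transcript has 168 nt. The capitals mark the 76 nt before the A-rich stretch, which is the part related to ID elements and to the ID portion of the B4 family.
Bc1: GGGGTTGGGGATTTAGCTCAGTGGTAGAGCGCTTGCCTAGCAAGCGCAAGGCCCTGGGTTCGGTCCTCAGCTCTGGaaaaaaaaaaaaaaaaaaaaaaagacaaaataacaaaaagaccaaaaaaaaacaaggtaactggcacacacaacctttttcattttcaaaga
When these 76 nt were searched against 141767 GENCODE transcripts with blastn (E value limit of 1e-05), 181 transcripts of 147 other genes held a match, with a median identity of 84.4% over a median of 67 nt. The match lay on the same strand as the transcript in 71 genes and on the opposite strand in 77. ID-like sequence was therefore present in annotated transcripts in both orientations at similar frequency.

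Reads on repeat subfamilies numbered 6021800 to 7282171 per library in TOTAL, 3045169 to 3880641 in INPUT, 1712212 to 3512997 in BO and 1384904 to 2003193 in IP. The B4 and ID subfamilies took between 98454 and 282555 of them in a library. Their share was 2.90% ± 0.526 (SD, n = 3) in TOTAL, 6.49% ± 0.141 in INPUT, 6.81% ± 2.31 in BO and 7.79% ± 0.646 in IP. These shares move with abundant structural RNAs: 7SL RNA took 38.2% to 51.6% of the TOTAL reads and 1.16% to 1.63% of the IP reads, and a large subunit rRNA name took 52.1% of the reads in BO replicate 3. Over reads outside 7SL RNA, that name and a small subunit rRNA name, the share was 6.27% ± 0.405 in TOTAL, 9.10% ± 0.932 in INPUT, 8.66% ± 0.394 in BO and 8.21% ± 0.797 in IP. Mael, the gene deleted in all groups, had an authors' mean of 0.65 in TOTAL, 0.502 in BO and 0 in INPUT and IP. The testis label was checked in the gene rows. In TOTAL the authors' means summed to 29630 over 8 of 8 spermatocyte markers, 5587 over 6 of 6 spermatogonia markers, 33500 over 6 of 6 Sertoli cell markers, 77570 over 5 of 5 Leydig cell markers, 2814 over 3 of 4 macrophage markers and 439.1 for the 1 of 3 red blood cell markers that was listed. The 6 spermatid markers summed to 347.3 in TOTAL. In such a bulk level, fewer cells of a type and less of an RNA per cell cannot be told apart. In the table of IP and TOTAL, the IP means summed to 173700, 3382, 8879, 15230, 1008, 129.5 and 235.7 for the same lists in the same order, and 5 of the 6 spermatid markers were below 1 in IP. In the table with BO, spermatocyte markers summed to 15400 in BO and 133200 in IP. Leydig cell markers had 5666 and 11640 there, and macrophage markers 349.3 and 771.9. Spermatogonia markers had 6108 and 2587, and Sertoli cell markers 10360 and 6787, but both lists were mixed. Zbtb16, Kit and Sall4 were lower in IP than in BO, and Stra8, Gfra1 and Uchl1 were higher. Kit alone had 4494 in BO, and the medians of the spermatogonia list were 335.6 and 306.4. Sox9, Wt1 and Cldn11 were lower in IP, and Amhr2, Rhox5 and Gata1 were higher. In the table with INPUT, spermatocyte markers had 34840 in INPUT and 174600 in IP, and Leydig cell markers 42330 and 15260. The part that these shifts in cell type markers have in the SINE values was not tested.

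All 8 subfamilies were among the more abundant repeat names. By mean normalised count over the 12 libraries, ID_B1 ranked 7, RSINE1 ranked 8, B4A ranked 12 and B4 ranked 27 of 1528 names. In the ID family, ID4_ ranked 49, ID4 ranked 57, ID ranked 140 and ID2 ranked 184. These counts are not per length. Divided by the number of listed loci, the TOTAL count was 1.91 ± 0.0915 per locus (SD, n = 3) for ID_B1 at the upper end and 1.45 ± 0.0165 for ID4 at the lower end. The 6 other subfamilies lay between 1.53 and 1.68 per locus. The family values in TOTAL were 1.72 ± 0.0894 for B4 and 1.55 ± 0.0098 for ID, beside 1.77 ± 0.0367 for B1 and 2.05 ± 0.112 for B2. In IP they were 1.57 ± 0.109 for B4, 1.51 ± 0.0261 for ID, 1.46 ± 0.0328 for B1 and 1.46 ± 0.191 for B2. The listed loci are the rows of the tables and need not be all genomic copies.

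In the B4 family, ID_B1 and RSINE1 carried the largest counts. The normalised counts of ID_B1 in replicates 1, 2 and 3 were 46700, 51280 and 50029 in TOTAL, 54672, 58628 and 58432 in INPUT, 50415, 54650 and 54360 in BO, and 42833, 44269 and 45694 in IP. For RSINE1 they were 41020, 45398 and 46017 in TOTAL, 47803, 49026 and 50895 in INPUT, 45094, 47250 and 48529 in BO, and 35410, 38793 and 41938 in IP. Every IP library of both names was lower than every INPUT and BO library. B4A gave 34213, 35911 and 35709 in TOTAL, 37055, 38474 and 39384 in INPUT, 38624, 38286 and 39673 in BO, and 31787, 34598 and 37232 in IP. The B4 subfamily gave 15834, 18859 and 18711 in TOTAL, 18328, 20500 and 20841 in INPUT, 19373, 20143 and 20986 in BO, and 15234, 16724 and 18932 in IP. For these names the lowest INPUT library lay within the range of the IP libraries, and IP and BO did not overlap.

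The ID family carried smaller counts, led by ID4_ and ID4. The normalised counts of ID4_ were 9004, 9086 and 8928 in TOTAL, 10322, 10051 and 10259 in INPUT, 9596, 10001 and 9811 in BO, and 8708, 9140 and 9093 in IP. ID4 gave 7651, 7667 and 7509 in TOTAL, 8666, 8653 and 8712 in INPUT, 8346, 8644 and 8414 in BO, and 7259, 7367 and 7538 in IP. TOTAL and IP overlapped for both, and INPUT was the highest group. The ID subfamily gave 2034, 2255 and 2205 in TOTAL, 2373, 2664 and 2718 in INPUT, 2672, 2767 and 2809 in BO, and 2222, 2038 and 2083 in IP. ID2 gave 1722, 1619 and 1754 in TOTAL, 1931, 1931 and 1936 in INPUT, 1989, 1859 and 1948 in BO, and 1361, 1434 and 1518 in IP. All 3 IP libraries of ID2 were below every library of the other groups.

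**Figure D1:**
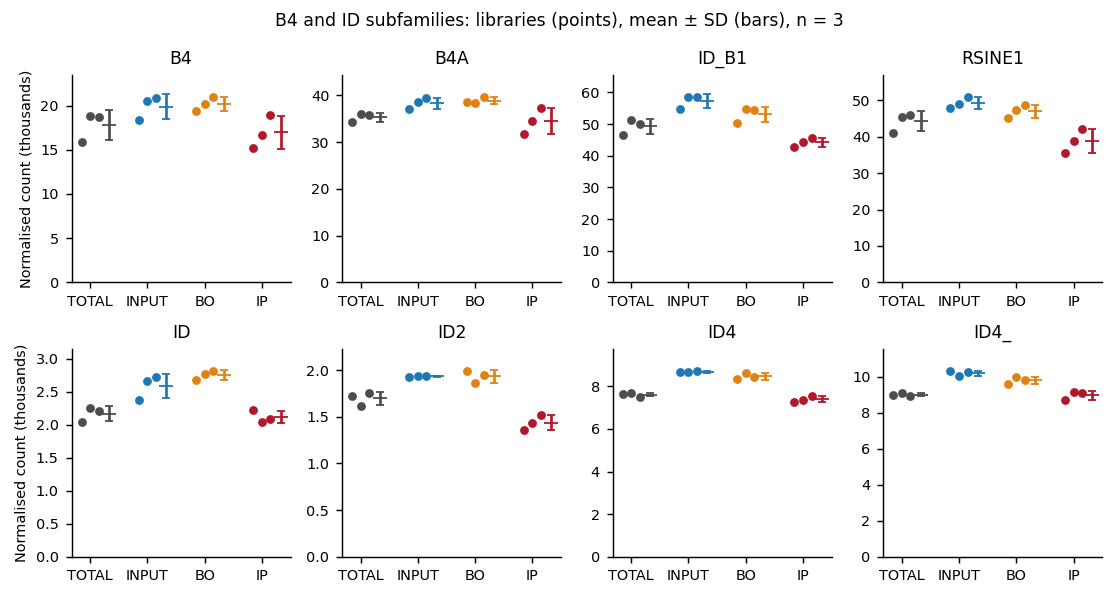
Normalised count (divided by 1000, as the authors scaled it) of each B4 and ID subfamily in TOTAL, INPUT, BO and IP, with 1 point per library in the order of replicates 1 to 3 and a bar for the mean ± SD of 3 libraries. On this scaling IP lies below BO without overlap in all 8 panels; scaled to library totals, all 8 differences turn positive.

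The comparison of IP with BO asks which RNAs the antibody recovered beyond the beads. B4 and ID RNA was not enriched in IP: all 8 subfamilies were lower than in BO on the upper quartile scale, and none passed a log2 fold change of 1 in either direction, beside 3.81% of all subfamilies called lower and 5.08% called higher by that rule with an adjusted p under 0.05. Of the 8, 5 were lower with an adjusted p under 0.05 (limma on the log2 of the normalised count plus 1, adjusted over 1180 subfamilies). Of all subfamilies tested, 23.2% were lower by the same rule. ID2 had a log2 fold change of -0.43 ± 0.06 (SE; adjusted p = 0.000321) and ID had -0.38 ± 0.07 (adjusted p = 0.00154). In the B4 family RSINE1 had -0.28 ± 0.08 (adjusted p = 0.0165) and ID_B1 had -0.26 ± 0.07 (adjusted p = 0.012). ID4 had -0.20 ± 0.05 (adjusted p = 0.0116). B4, B4A and ID4_ had log2 fold changes of -0.25, -0.17 and -0.13, with adjusted p of 0.0606, 0.0793 and 0.0884. All 8 had IP libraries that did not overlap the BO libraries, as had 30.5% of all subfamilies in the same direction.

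The direction of these differences depends on the scaling. Scaled to library totals, all 8 log2 fold changes of IP vs. BO turned positive, between 0.07 and 0.37 with none past the test, and the median of all subfamilies moved up by 0.49. Relative to the median of all 1180 subfamilies, the median of the 8 was -0.14 as deposited, -0.13 by the median ratio and -0.12 by library totals, with 8, 8 and 7 of the 8 below that median. By the median ratio, edgeR or DESeq2, 2 of the 8 were lower with an adjusted p under 0.05, beside 15.5%, 14.8% and 15.6% of all subfamilies. A fit of the 2 compared groups alone also gave 2, beside 21.4%. RSINE1 missed the threshold without BO replicate 3 or IP replicate 1. Without BO replicate 3, the library rich in rRNA, 4 of the 8 were lower, beside 21.0%.

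Against INPUT, the fractions from which IP was made, 6 of the 8 were lower in IP with an adjusted p under 0.05, beside 16.7% of all subfamilies. The number was 4 by the median ratio, edgeR or DESeq2, beside 12.8%, 14.1% and 14.0% of all subfamilies, and 5 in a fit of the IP and INPUT libraries alone, beside 15.8%. The log2 fold change was -0.43 ± 0.06 (SE) for ID2, -0.37 ± 0.07 for ID_B1, -0.35 ± 0.08 for RSINE1, -0.29 ± 0.07 for ID, -0.23 ± 0.05 for ID4 and -0.19 ± 0.05 for ID4_. Their adjusted p ranged from 0.000548 for ID2 to 0.0232 for ID4_ in the limma fit. ID4_ missed the threshold in 5 of the 6 fits that left out a library, and ID missed it without INPUT replicate 2 or 3. B4 and B4A had -0.23 and -0.15, with adjusted p of 0.0943 and 0.136, and their IP and INPUT libraries overlapped. With a library left out in turn, B4 ranged from -0.32 to -0.16 and B4A from -0.21 to -0.093. Scaled to library totals, all 8 turned positive, between 0.12 and 0.39, while the median of all subfamilies moved up by 0.54. The median of the 8 stayed below that of all subfamilies by 0.2 as deposited and 0.19 by library totals, with all 8 below it in both.

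Against TOTAL, the levels in IP were close to those in the whole extract on the scale as deposited. Only ID2 was lower in IP, with a log2 fold change of -0.24 ± 0.06 (SE; limma adjusted p = 0.020), beside 12.5% of all subfamilies. In a fit of the IP and TOTAL libraries alone 0 of the 8 passed, beside 7.88% of all subfamilies lower. The call of ID2 was also lost without IP replicate 1 or 2 or TOTAL replicate 1 or 3, where the log2 fold change lay between -0.24 and -0.20. RSINE1 had -0.19 and ID_B1 had -0.16, with adjusted p of 0.11 and 0.136. The 5 other subfamilies had values between -0.07 and -0.0045. The median of the 8 was -0.06 and that of all subfamilies -0.05, with 4 of the 8 on each side of it. Scaled to library totals, all 8 were higher in IP by more than 1 on the log2 scale, from 1.31 to 1.54, as were 85.9% of all subfamilies by the adjusted test, while the median of all subfamilies moved up by 1.53. Both medians then stood at 1.49.

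INPUT vs. TOTAL asks what the choice of fractions did, and here the 8 subfamilies leaned upward. The log2 fold change lay between 0.12 for B4A and 0.25 for ID, and 7 of the 8, all but B4, had INPUT libraries above every TOTAL library, beside 14.7% of all subfamilies. None of the 8 passed an adjusted p of 0.05 in the limma fit, with adjusted p from 0.0896 for ID4 to 0.442 for B4A, and 5 had an unadjusted p under 0.05, beside 9.07% of all subfamilies higher by that rule. By that adjusted rule 0.847% of all subfamilies were higher. Same-numbered INPUT and TOTAL libraries deviated together, although replicates 2 and 3 also did so across numbers. With the replicate block 3 of the 8 were higher (ID_B1, ID4 and ID4_, limma adjusted p from 0.0198 to 0.0497), beside 2.97% of all subfamilies. With the block in a fit of the 6 INPUT and TOTAL libraries alone, an alternative added after the data were seen, all but B4A were higher, 7 of the 8, beside 7.37% of all subfamilies. DESeq2 on the recovered reads gave 2 of the 8, beside 2.63% of all subfamilies, and edgeR gave 0, beside 0.424%. Scaling to library totals gave all 8 past a log2 fold change of 1, beside 54.0%. Relative to the median of all subfamilies, the median of the 8 was higher by 0.15 as deposited and 0.16 by library totals.

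In BO vs. INPUT, the RNA held by bare beads, no subfamily of either family differed in the limma fit, by edgeR or by DESeq2, and none had an unadjusted p under 0.05 in the limma fit. The log2 fold change ran from -0.11 ± 0.07 (SE) for ID_B1 to 0.09 ± 0.07 for ID. Over all subfamilies 11.7% were lower and 17.2% were higher with an adjusted p under 0.05, and 16.4% and 22.2% with an unadjusted p under 0.05. The BO libraries of ID4, ID4_ and ID_B1 nevertheless lay below every INPUT library, 3 of the 8, beside 18.5% of all subfamilies. With a library left out in turn, ID_B1 ranged from -0.14 to -0.07 and ID from 0.031 to 0.13.

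**Figure D2:**
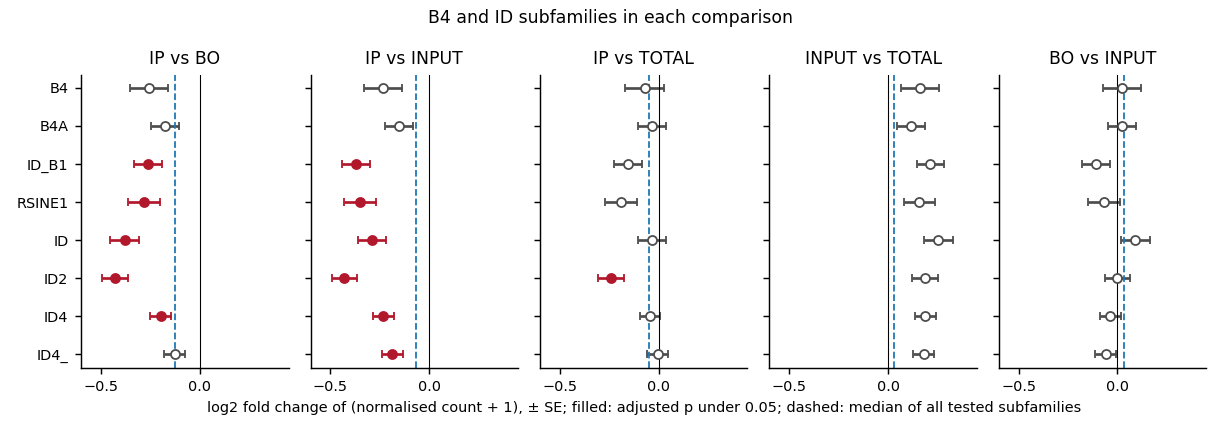
Log2 fold change of the normalised count plus 1 (points, ± SE of the limma fit of 12 libraries) for the 8 subfamilies in 5 comparisons, filled where the adjusted p was under 0.05, with the median of all 1180 subfamilies as a dashed line. The points lie left of the dashed line in IP vs. BO and IP vs. INPUT and right of it in INPUT vs. TOTAL; scaled to library totals, all 8 values of IP vs. BO, IP vs. INPUT and IP vs. TOTAL are positive.

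Ratios within a library do not depend on how libraries are scaled, and were used to set the families beside each other. With 3 libraries against 3, the exact two-sided permutation test cannot give a p below 0.1, and after adjustment over 15 such tests the smallest value was 0.214, so no ratio could pass 0.05. The ID family held a near constant proportion to the B4 family. The log2 ratio of summed ID to summed B4 counts was -2.84 ± 0.0721 (SD, n = 3) in TOTAL, -2.81 ± 0.0463 in INPUT, -2.79 ± 0.0345 in BO and -2.75 ± 0.0748 in IP, and the libraries overlapped in all 5 comparisons.

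Against B1, the B4 and ID families together were higher in both bead samples than in the material before them. The log2 ratio to summed B1 counts was -0.708, -0.638 and -0.596 in TOTAL, -0.687, -0.641 and -0.601 in INPUT, -0.47, -0.53 and -0.513 in BO, and -0.544, -0.475 and -0.428 in IP. The IP libraries lay above every INPUT and TOTAL library, by 0.16 ± 0.04 and 0.16 ± 0.05 (SE of the difference). BO lay above INPUT in the same way, by 0.14 ± 0.03, while IP and BO overlapped with a difference of 0.02 ± 0.04. Each of the 3 non-overlapping differences had an exact p of 0.1, the smallest the test can give. Among the members, ID4_ was the only one above B1 in IP vs. BO without overlap, by 0.13 ± 0.03, and ID2 was the only one below, by -0.17 ± 0.07. In IP vs. INPUT the libraries of RSINE1 and ID2 overlapped, at 0.096 and 0.018, and the other members were higher without overlap. In IP vs. TOTAL those of B4, RSINE1 and ID2 overlapped, at 0.21, 0.088 and 0.038, and the others were higher without overlap. The share of all subfamilies above B1 in this way is not given here, so the values of the members are a description only. On the scale as deposited, 15 of the 16 B1 subfamilies were themselves lower in IP than in INPUT in the limma fit, beside 16.7% of all subfamilies.

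Against B2, the ratio changed most between extract and fractions. It was -0.829, -0.593 and -0.57 in TOTAL, -0.345, -0.167 and -0.158 in INPUT, 0.0141, -0.0824 and -0.0712 in BO, and -0.156, -0.435 and -0.268 in IP. INPUT exceeded TOTAL by 0.44 ± 0.10 (SE of the difference), IP exceeded TOTAL by 0.38 ± 0.12, and BO exceeded INPUT by 0.18 ± 0.07 (0.12 without INPUT replicate 1), each without overlap and with an exact p of 0.1. IP lay below BO by -0.24 ± 0.09, also without overlap and with an exact p of 0.1, and overlapped INPUT. When the median over subfamilies replaced the sum, the IP vs. BO difference turned to 0.20 and the BO vs. INPUT difference to -0.04.

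**Figure D3:**
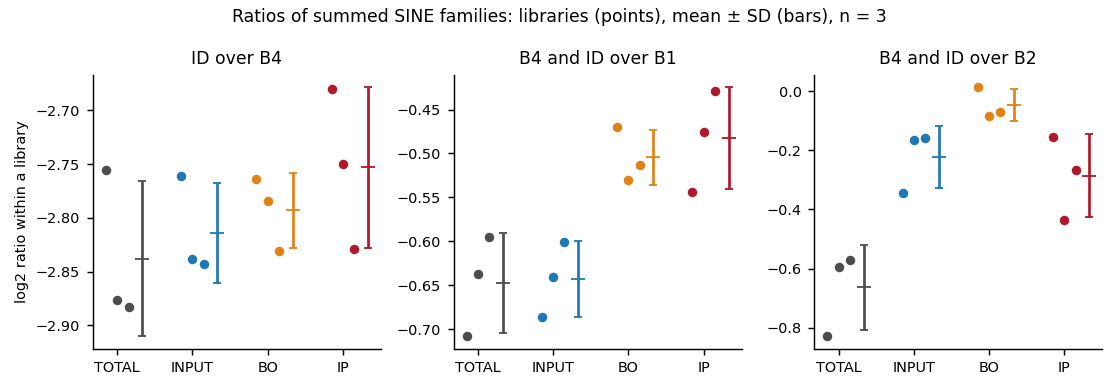
Log2 ratio of summed normalised counts within each library (points) for ID over B4, B4 and ID over B1, and B4 and ID over B2, with a bar for the mean ± SD of 3 libraries per group. ID over B4 overlaps in all groups, while IP lies above INPUT and TOTAL for the ratio to B1.

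BC1 RNA itself was highest in TOTAL on the scale as deposited. The normalised counts of BC1_Mm were 32754, 11639 and 10476 in TOTAL, 7937, 3596 and 4132 in INPUT, 2983, 3198 and 3064 in BO, and 2509, 2641 and 2632 in IP. On that scale every TOTAL library exceeded every library of the other groups. Replicate 1 stood apart in both TOTAL and INPUT, and BO and IP were the lowest groups. In the limma fit BC1_Mm was lower in IP than in TOTAL by a log2 fold change of -2.61 ± 0.37 (SE; adjusted p = 0.000485) and lower in INPUT than in TOTAL by -1.69 ± 0.37 (adjusted p = 0.0483). In the same comparisons the log2 fold changes of the ID family lay between -0.24 and -0.0045 and between 0.18 and 0.25. Scaling to library totals moved the median of all subfamilies up by 1.53 in IP vs. TOTAL and by 0.997 in INPUT vs. TOTAL. In IP vs. BO, BC1_Mm had -0.25 ± 0.37 (adjusted p = 0.643), within the range of -0.43 to -0.13 of the ID family. The difference between BC1_Mm and the ID family was not tested.

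Other source RNAs and reference elements gave a frame for these sizes. 7SL RNA, the ancestor of B1, had a log2 fold change of -6.50 ± 0.85 (SE; limma adjusted p = 0.000253) in IP vs. TOTAL and 4.38 ± 0.85 (adjusted p = 0.00176) in IP vs. BO. The alanine tRNA name tRNA-Ala-GCY_ had -0.70 ± 0.10 (adjusted p = 0.000218) in IP vs. BO, whereas tRNA-Ala-GCG had -0.58 ± 0.27 (adjusted p = 0.124) and tRNA-Ala-GCA had -0.25 ± 0.15 (adjusted p = 0.216). B1_Mm, a young B1 subfamily, had -0.22 ± 0.07 (adjusted p = 0.0225), and B2_Mm2 had 0.04 ± 0.12 (adjusted p = 0.824). The young L1 families were below 7SL RNA and far above B1_Mm and B2_Mm2, with 2.32 ± 0.20 (adjusted p = 5.61e-06) for L1Md_A and 2.05 ± 0.22 (adjusted p = 2.97e-05) for L1Md_T in IP vs. BO. No B4 or ID subfamily came near those values on the scale as deposited.

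Single loci were given only as the authors' mean per group, in a table of genes and repeat loci for each of IP vs. BO, IP vs. INPUT and IP vs. TOTAL, so loci have no spread and no test. Each table was normalised on its own, and the IP mean of a locus differs between them. The tables share the IP libraries, so the same direction in several of them is not independent. Loci carry a subfamily name and a running number without coordinates, and positions, host genes and strands are not given here. A mean above 0 was listed for 53.9% of the 98613 loci in TOTAL, 56.4% in INPUT, 40.0% in BO and 48.3% in IP. Most loci stood at a few reads or fewer: the smallest IP mean above 0 in the table with BO was 0.249, and 388 loci reached an IP mean of 10. The share of loci with a mean above 0 in IP ran from 42.6% in ID to 50.0% in B4A.

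In the table of IP and BO, 1068 B4 and ID loci reached a mean of 10 in BO and 388 in IP, or 2.75 times as many in BO, beside 7771 and 4333 of all repeat loci, or 1.79 times as many. Summed over all 98613 loci, with no minimum, the log2 ratio of IP to BO was -0.71, beside -0.52 over all repeat loci. Of the 1188 loci that reached 10 in either group, 800 did so in BO alone and are lower in IP for that reason, and 120 did so in IP alone and are higher. Of the 268 that reached it in both, 95 were higher in IP, beside 968 of 2485 of all repeat loci. Over the 1188 loci 18.1% were higher in IP, beside 29.3% of the 9619 repeat loci chosen in the same way, and the median log2 ratio, with 1 added to each mean, was -1.49. That share and median follow from how the loci were chosen and are a description only. With summed repeat means set equal they became 32.6% and -0.85, and with 10 added to each mean the median was -0.77.

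In the table of IP and INPUT, 1134 loci reached a mean of 10 in INPUT and 597 in IP, beside 8152 and 6390 of all repeat loci. The log2 ratio of the sums over all B4 and ID loci was -0.43, beside -0.27 over all repeat loci. Of the 1329 that reached 10 in either group, 732 did so in INPUT alone and 195 in IP alone. Of the 402 that did so in both, 172 were higher in IP, beside 1640 of 3428 of all repeat loci. Over the 1329 loci 27.6% were higher in IP, beside 41.4% of repeat loci chosen alike. The median log2 ratio was -1.06, again as a description that follows from the choice. In the table of IP and TOTAL the numbers were closer, with 694 loci in TOTAL and 585 in IP, beside 6755 and 6325 of all repeat loci. The log2 ratio of the sums was -0.16, beside -0.75 over all repeat loci. There 342 loci reached 10 in TOTAL alone and 233 in IP alone. Of the 352 that did so in both, 194 were higher in IP, beside 1770 of 3342 of all repeat loci. Of all 927, 46.1% were higher in IP, beside 48.8% of repeat loci, with a median of -0.19 beside -0.07. With a minimum mean of 20 that share was 56.9% of 306 loci, and with summed repeat means set equal it was 77.0%, so the balance against TOTAL rests on these choices.

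**Figure D4:**
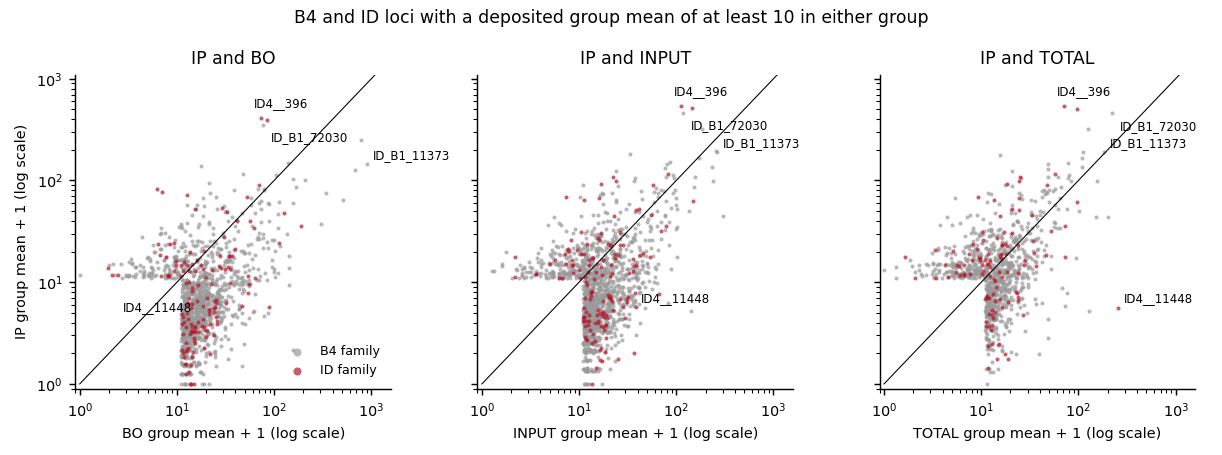
Authors' group mean plus 1 in IP (log axis) against that in BO, INPUT or TOTAL (log axis) for B4 loci (grey) and ID loci (red) whose mean was at least 10 in either group, with the line of equality and 4 loci named. The minimum leaves the lower left corner empty, and loci that reach it in 1 group alone lie off the line for that reason. ID4__396 and ID_B1_72030, named for their IP means, lie above the line.

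Behind the small change of each subfamily, single loci differed widely in their authors' means. The 3 loci with the largest IP mean were ID4__396, ID4__15781 and ID_B1_72030. For ID4__396 the mean was 412.1 in IP and 73.17 in BO, 540.2 in IP and 111.7 in INPUT, and 537.6 in IP and 70.46 in TOTAL. The IP mean was thus 5.63 times that of BO, 4.83 times that of INPUT and 7.63 times that of TOTAL. ID4__15781 had 388.9 in IP and 82.61 in BO, and its IP mean was 4.71, 3.53 and 5.29 times those of BO, INPUT and TOTAL. ID_B1_72030 had 348.3 in IP and 76.48 in BO, with ratios of 4.55, 3.88 and 2.04, and with 222.3 it was also among the 3 highest loci of TOTAL. They were chosen for their IP means, which favours such ratios.

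The 3 loci with the largest BO mean also stood high in IP, at ranks 6, 4 and 8 by IP mean. ID_B1_11373 had an authors' mean of 902.8 in BO and 144.0 in IP, ID_B1_85228 had 785.6 and 246.3, and RSINE1_47439 had 681.7 and 125.3. In the table with INPUT, these loci had INPUT means of 263.9, 184.0 and 171.4, beside IP means of 188.9, 322.9 and 164.2. Their mean on bare beads was thus 6.27, 3.19 and 5.44 times that in IP, while IP and INPUT differed by at most 1.76 times. Their choice by BO mean favours a BO mean above that of IP. The other loci leading INPUT were ID_B1_25503, with 303.6 in INPUT and 43.50 in IP, and ID_B1_53108, with 254.0 and 192.2. TOTAL was led by ID4__11448, with 255.4 in TOTAL and 4.636 in IP, and ID_B1_25503 stood there at 201.9 beside 43.16 in IP. ID4__11448 had 37.11 in INPUT and 1.434 in BO.

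Among loci with a larger mean of at least 20, the highest log2 ratios of IP to BO, with 1 added to each mean as in the ratios to INPUT and TOTAL, were 3.70 for ID4_17978 (81.20 in IP, 5.309 in BO), 3.46 for ID_7659 (75.36 and 5.952) and 2.96 for B4A_62628 (136.8 and 16.67). The lowest were -6.16 for ID_B1_23402 (1.179 in IP, 154.6 in BO), -4.97 for B4A_25702 (0.497 and 45.91) and -4.42 for RSINE1_17460, which was listed at 0 in IP beside 20.44 in BO. ID_B1_23402 had only 6.333 in INPUT and 4.433 in TOTAL, so its BO mean stood far above those of both source materials in their own tables. Similarly, RSINE1_17460 had 0.76 in INPUT and 0.209 in TOTAL. The authors' means do not show whether a single BO library carried these values.

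Against INPUT the highest log2 ratios were 3.24 for ID4_13407 (68.55 in IP, 6.377 in INPUT), 3.06 for RSINE1_110778 (89.58 and 9.86) and 2.99 for B4A_10939 (43.09 and 4.543). The lowest were -4.76 for B4_21404 (4.216 in IP, 140.1 in INPUT), -4.19 for ID_2464 (0.993 and 35.42) and -3.86 for ID4__4487 (0.751 and 24.44). Against TOTAL the highest were 3.66 for RSINE1_79468 (66.96 in IP, 4.389 in TOTAL), 3.51 for B4A_62628 (178.5 and 14.79) and 3.31 for B4A_10939 (43.07 and 3.438). The lowest were -5.51 for ID4__11448, -4.63 for B4_21404 (4.175 and 127.4) and -4.32 for ID_B1_110074 (0.976 and 38.45). These loci were chosen for their ratios.

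ID4__396 and ID4__15781, the 2 ID4_ loci with the largest IP means and chosen for that, held 24.4% of the summed IP mean of the 5555 ID4_ loci, beside 3.52% of the BO sum, 5.17% of the INPUT sum and 3.80% of the TOTAL sum. With all loci, the log2 ratio of summed ID4_ means was -0.43 for IP vs. BO, -0.20 for IP vs. INPUT and -0.03 for IP vs. TOTAL. Without these 2 loci, whose choice lowers the IP sum by construction, it was -0.78, -0.53 and -0.38. The value of ID, ID2 and ID4 over all loci was -0.81, -0.75 and -0.66 against BO, -0.59, -0.61 and -0.40 against INPUT, and -0.21, -0.25 and -0.14 against TOTAL. Without the 2 loci of largest IP mean in each, it was -0.95, -0.78 and -0.75 against BO, -0.69, -0.69 and -0.48 against INPUT, and -0.34, -0.35 and -0.21 against TOTAL. These are sums of the authors' means with no test.

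The families differ in size, so concentration was read from the percent of a family's loci, largest first, that made up 50% of its summed mean. It was 4.92% of B4 loci and 3.16% of ID loci in IP, 3.35% and 3.59% in BO, 4.66% and 4.94% in INPUT, and 5.72% and 5.43% in TOTAL. IP was the group with the lowest value in the ID family, and BO in the B4 family. Over both families, 4614 loci made up 50% of the IP sum, 3331 of the BO sum, 4615 of the INPUT sum and 5597 of the TOTAL sum. B4 and ID RNA in IP was therefore mostly the sum of many loci at low counts, with ID4__396, ID4__15781 and ID_B1_72030 at the top.

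**Figure D5:**
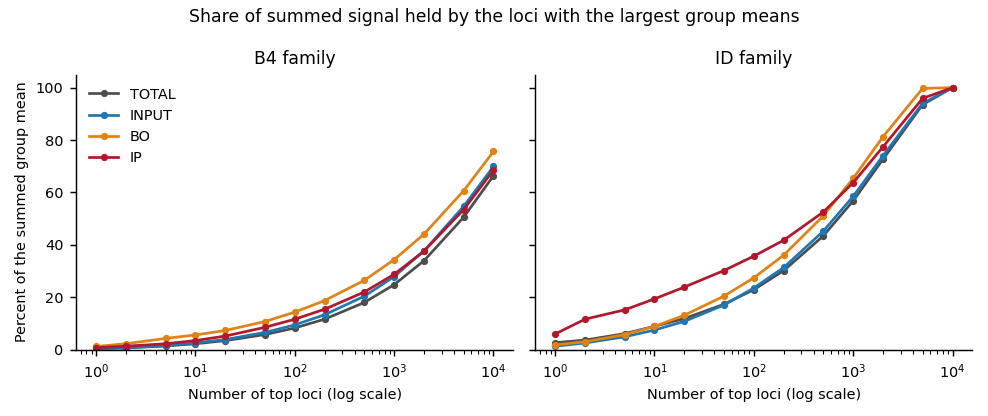
Percent of the summed authors' mean of each family (vertical axis) held by its loci with the largest means (number of loci, log axis), with 1 line each for TOTAL, INPUT, BO and IP. In the ID family the IP line starts highest, with 11.6% in the top 2 loci beside 2.53% to 3.63% in the other groups, and in the B4 family BO is the most concentrated.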

How the data were processed

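RNA-seq libraries (TruSeq Stranded Total RNA, Ribo-Zero) of TOTAL, INPUT, BO and IP were grouped by their labels. The authors aligned the reads to mm10 (STAR 2.6.0c, up to 100 placements per read), reassigned ambiguous reads with Telescope 1.0.3, summed them per repeat subfamily and normalised them with EBSeq 1.26.0. The deposited signal is this normalised count, with a 75th percentile near 484 in each library. Within a tolerance of 0.1, 100% of values were whole multiples of 1 step per library, which gave the reads. The locus and gene tables hold the authors' DESeq2 1.24.0 results. Their group means were used as deposited signal. Their overall mean, log2 fold change, standard error, Wald statistic and p-values were not used. How reads were counted on single loci and by strand is not given in the sources used here.

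Subfamilies with a mean of at least 10 (1180) were fitted with limma 3.58.1 (R 4.3.3, trend, 1 fit of 12 libraries) on log2 of the normalised count plus 1, with Benjamini-Hochberg adjustment over all. A subfamily differed at an adjusted p under 0.05 and was called beyond a log2 fold change of 1. The fit was tested on simulated data. The replicate numbers were taken to pair INPUT with TOTAL, whose 3 same-numbered pairs had correlated deviations from the group means (0.321 to 0.629), and no other groups that were compared. Replicates 2 and 3 of these groups also correlated across numbers (0.331 and 0.243). Ratios of summed counts were compared with exact two-sided permutation tests (scipy 1.17.1). Transcripts were searched with BLAST+ 2.17.0.

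Alternatives were other pseudocounts, filters and scalings, a fit of the compared groups, a replicate block, edgeR 4.0.16 and DESeq2 1.42.0 on recovered reads, and leaving out each library. All 8 subfamilies were named. Loci named were the 3 with the largest mean in each group and, among loci with a larger mean of at least 20, the 3 highest and 3 lowest ratios in each table. Members and lists were chosen with earlier results of these data known. Near-identical copies share reads, so counts of single loci are uncertain.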

Additional observations from a re-analysis of the deposited data

How the results depend on the processing

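The 40 log2 fold changes of the 8 subfamilies kept their direction and their side of the threshold with pseudocounts of 0.1 and 10 and without a filter. With a mean of at least 100 only 3 crossed it, and IP vs. BO then had 7 subfamilies lower and INPUT vs. TOTAL had 1 higher. The share of all subfamilies under that filter is not given here, so these counts are a description only. Scaling to library totals made every value of IP against the other groups positive. In IP vs. BO it gave 0.24 for B4, 0.32 for B4A, 0.23 for ID_B1, 0.21 for RSINE1, 0.12 for ID, 0.068 for ID2, 0.30 for ID4 and 0.37 for ID4_. In IP vs. INPUT it gave 0.31 for B4, 0.39 for B4A, 0.17 for ID_B1, 0.20 for RSINE1, 0.26 for ID, 0.12 for ID2, 0.31 for ID4 and 0.36 for ID4_. In IP vs. TOTAL it gave 1.48 for B4, 1.52 for B4A, 1.39 for ID_B1, 1.36 for RSINE1, 1.52 for ID, 1.31 for ID2, 1.51 for ID4 and 1.54 for ID4_. In BO vs. INPUT it gave 0.048 for ID2 and 0.014 for ID4. No subfamily was then lower in IP (0 against each of BO, INPUT and TOTAL), and the number higher, also past a log2 fold change of 1, was 8 in IP vs. TOTAL and 8 in INPUT vs. TOTAL, beside 90.7% and 78.2% of all subfamilies higher and 85.9% and 54.0% past 1.

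The number lower in IP vs. INPUT was 4 under median-ratio scaling, edgeR and DESeq2 and 5 in the fit of the compared groups only. The number lower in IP vs. BO was 2 under median-ratio scaling, edgeR, DESeq2 and the fit of the compared groups only, and that in IP vs. TOTAL was 0 in the last. The number higher in INPUT vs. TOTAL was 2 with DESeq2. In IP vs. TOTAL, values near 0 changed sign under median-ratio scaling (0.019 for B4A, 0.018 for ID, 0.0092 for ID4, 0.047 for ID4_), edgeR (0.0055 for B4A, 0.0062 for ID, 0.034 for ID4_) and DESeq2 (0.022 for B4A, 0.023 for ID, 0.013 for ID4, 0.051 for ID4_). In BO vs. INPUT, B4 and B4A changed to -0.0202 and -0.0206 under median-ratio scaling, -0.0597 and -0.0581 with edgeR, and -0.025 and -0.024 with DESeq2. With edgeR, ID4_ had 0.0051 in IP vs. BO. The cause was not tested.

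With each library left out in turn, the number lower in IP ranged from 4 to 7 against BO, 4 to 7 against INPUT and 0 to 1 against TOTAL. With all libraries, 23.2%, 16.7% and 12.5% of all subfamilies were lower. Without BO replicate 3, 21.0% were lower than in BO. The share in the other fits of this kind is not given here, so these ranges are a description only. In IP vs. TOTAL, B4 ranged from -0.15 to 0.004, B4A from -0.089 to 0.025 and ID4_ from -0.017 to 0.018, and was 0.0019 for ID4_ without TOTAL replicate 2. In BO vs. INPUT, B4 ranged from -0.036 to 0.056 (-0.0075 without BO replicate 3), B4A from -0.0026 to 0.041 and ID2 from -0.022 to 0.026 (0.0003 without INPUT replicate 3). Where a library is left out, the fit still shares its spread with the other groups. The log2 ratio of ID to B4 in INPUT vs. TOTAL ranged from -0.0028 to 0.066. That of B4 and ID to B1 ranged from -0.005 to 0.053 in IP vs. BO and from -0.026 to 0.03 in INPUT vs. TOTAL (-0.017 without INPUT replicate 3), and that to B2 in IP vs. INPUT from -0.13 to 0.011. With medians over subfamilies in place of sums, the difference of IP in ID to B4 was -0.061 from BO and -0.0093 from INPUT, and in the ratio to B2 it was 0.20 from BO and 0.16 from INPUT, with -0.043 between BO and INPUT.

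Same-numbered libraries correlated above 0.1 in all 3 pairs of INPUT and TOTAL, in 2 of 3 of BO and INPUT, 1 of 3 of IP and TOTAL and 0 of 3 of IP with BO or INPUT. The numbers were therefore taken to pair INPUT and TOTAL only. TOTAL replicate 2 also correlated with INPUT replicate 3 (0.331), and TOTAL replicate 3 with INPUT replicate 2 (0.243). The correlations thus set replicate 1 apart more than they separate replicates 2 and 3. With the replicate block, 3 were higher in INPUT vs. TOTAL, and 7 with the block in those 6 libraries alone. Where the libraries share only a number, the block gave 7 lower in IP than in BO, 8 than in INPUT and 3 than in TOTAL, beside 25.7%, 18.9% and 15.3% of all subfamilies, and 0 in BO vs. INPUT. For the ratios, the exact two-sided sign-flip test of 3 pairs cannot give a p below 0.25, so it says nothing on whether the groups differ.

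For loci, IP vs. BO had 3199 loci and a median of -1.32 at a minimum mean of 5, and 403 and -1.66 at 20. The median was -1.67 with a pseudocount of 0.1 and -0.77 with 10, and with equal sums over repeat loci 32.6% were higher in IP at a median of -0.85. IP vs. INPUT had 3975 loci at a minimum of 5, and 433 with 33.7% higher and a median of -0.82 at 20. Its median was -0.58 with a pseudocount of 10, and equal sums gave 36.9% and -0.63. IP vs. TOTAL had 3007 loci, 40.4% and -0.39 at a minimum of 5, 306 loci, 56.9% and 0.22 at 20, and 1529 loci, 77.0% and 0.9999 with equal sums. The number of loci depends on the minimum by construction. The description of loci by exon overlap was not run, since the loci have no coordinates here. Depth limits single loci, as most IP means were below 10.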
